A study of Mus musculus with 4 samples.

Results

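The genes described here are 9 transcription factors that mark the ventral interneurons of the developing spinal cord, Evx1, Evx2, En1, Foxn4, Sox14, Gata2, Gata3, Tal1 and Sim1. They were taken by symbol from 24971 genes in RNA-seq counts of mouse neural tubes at embryonic stage E12.5. The 4 libraries, all on the C57BL/6 background, were 2 labelled Lbx1Δ/Δ, a mutant genotype of the homeobox gene Lbx1 whose deleted part the labels do not describe, and 2 labelled WT (wild type). Each library came from the pooled tubes of littermates that shared a genotype, and the titles number the libraries 1 and 2 within each genotype without saying whether the same number means the same litter. Library totals were 16853984 and 17250143 counts for libraries 2 and 1 labelled Lbx1Δ/Δ, and 16948717 and 20579803 counts for WT libraries 2 and 1. Levels are given as CPM (counts scaled to the library total), and every tube held many cell types, so fewer cells of a class and less RNA per cell cannot be told apart.

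Ventral interneurons arise from progenitor domains p0 to p3, which Sonic hedgehog from the notochord and floor plate sets out along the ventral wall of the tube, and the neurons they make are the classes V0 to V3, named from dorsal to ventral. Evx1 and Evx2 mark V0 neurons, many of which send axons across the midline, and En1 marks inhibitory V1 neurons. The p2 domain uses Foxn4 to begin V2 production, after which Notch signalling separates excitatory V2a neurons, marked by Sox14, from inhibitory V2b neurons, marked by Gata2, Gata3 and Tal1. Sim1 marks excitatory V3 neurons, the most ventral class. Lbx1 itself acts in dorsal interneurons, so the comparison asks whether the levels of these ventral markers differed in tubes labelled mutant for a dorsal factor.

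The promoters of Sox14 and Sim1 are shown because these genes differed between libraries of different number, and those of En1 and Evx2 because, of the 6 well-counted members, theirs held a motif searched for. The windows run from 250 bases before to 50 bases after the RefSeq start in build GRCm38.p6. They lie at chr9:99876121-99876420 (minus strand), chr10:50895401-50895700 (plus strand), chr1:120602237-120602536 (plus strand) and chr2:74659508-74659807 (minus strand), and capitals mark motif matches.
Sox14: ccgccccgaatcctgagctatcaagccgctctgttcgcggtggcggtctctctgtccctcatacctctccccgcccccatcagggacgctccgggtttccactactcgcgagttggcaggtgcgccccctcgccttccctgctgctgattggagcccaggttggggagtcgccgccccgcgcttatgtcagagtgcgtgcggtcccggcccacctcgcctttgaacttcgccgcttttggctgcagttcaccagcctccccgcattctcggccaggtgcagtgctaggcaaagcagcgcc
Sim1: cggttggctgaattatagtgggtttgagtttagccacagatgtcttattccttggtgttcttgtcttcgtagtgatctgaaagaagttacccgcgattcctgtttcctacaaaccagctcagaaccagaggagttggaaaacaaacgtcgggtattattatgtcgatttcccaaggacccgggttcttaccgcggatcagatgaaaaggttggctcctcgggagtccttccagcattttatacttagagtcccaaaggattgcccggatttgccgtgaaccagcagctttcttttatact
En1: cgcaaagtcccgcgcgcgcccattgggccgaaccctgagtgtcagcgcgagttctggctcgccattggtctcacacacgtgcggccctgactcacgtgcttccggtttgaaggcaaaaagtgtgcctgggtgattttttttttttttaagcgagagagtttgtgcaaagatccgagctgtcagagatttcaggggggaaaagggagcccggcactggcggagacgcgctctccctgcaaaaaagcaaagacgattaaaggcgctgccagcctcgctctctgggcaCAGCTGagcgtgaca
Evx2: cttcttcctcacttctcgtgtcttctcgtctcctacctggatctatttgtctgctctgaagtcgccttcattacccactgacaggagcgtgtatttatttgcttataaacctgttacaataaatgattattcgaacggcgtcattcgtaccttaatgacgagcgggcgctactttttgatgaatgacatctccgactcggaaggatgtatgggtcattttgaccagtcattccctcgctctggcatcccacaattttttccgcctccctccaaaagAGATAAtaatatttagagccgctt
The motifs were sites of homeodomain, helix-loop-helix and GATA proteins, searched on both strands. They do not cover the protein class of every member, and no SOX or forkhead site was searched for. They were TAATTA, a homeodomain core that is its own reverse complement, CAGCTG, an E-box of basic helix-loop-helix proteins that is also its own reverse complement, and AGATAA, which reads TTATCT on the other strand, a site of GATA factors. They do not overlap each other in these windows. CAGCTG was found once in En1 and AGATAA once in Evx2, and neither Sox14 nor Sim1 held any of them. Of 32851 promoter windows of the same length, 5.29% held TAATTA, 16.3% CAGCTG and 11.2% AGATAA.

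Of the 9 genes, 6 were represented by 1 RefSeq accession each and had at least 55 counts in every library. These were Evx1, Evx2, En1, Foxn4, Sox14 and Sim1. The V2b factors had several accessions and very few counts. Gata2, with 2 accessions, had 12 and 14 counts in libraries 2 and 1 labelled Lbx1Δ/Δ, and 8 and 9 in WT libraries 2 and 1. Tal1, with 2 accessions, had 6 and 3 counts in the libraries labelled Lbx1Δ/Δ and 2 and 3 in WT. Gata3, with 4 accessions, had 0 counts in all 4 libraries. At a limit of 3 counts in the library, counting error alone allows up to 0.178 and 0.174 CPM in libraries 2 and 1 labelled Lbx1Δ/Δ. In WT libraries 2 and 1 it allows up to 0.177 and 0.146 CPM. This limit does not cover the handling of reads shared by accessions, so it is not an upper bound on the Gata3 level. Over all genes, fewer than 10 counts in all were found for 61.3% of the 7924 with several accessions and for 41.3% of the 17047 with a single accession. The progenitor gene Pax6 (8 accessions) had 0 counts in all 4 libraries. The neuronal genes Elavl4 (6 accessions) and Dcx (4 accessions) had at most 2 and 13 counts a library. Tubb3, a neuronal gene with 1 accession, had at least 34859. Other genes with several accessions were well counted, such as Kdr (2 accessions, at least 2155) and Ldb1 (3 accessions, at least 467). How reads shared by several accessions were handled is not given in the sources used here, so the counts of Gata2, Gata3 and Tal1 are uncertain as measures of V2b neurons.

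**Figure D1:**
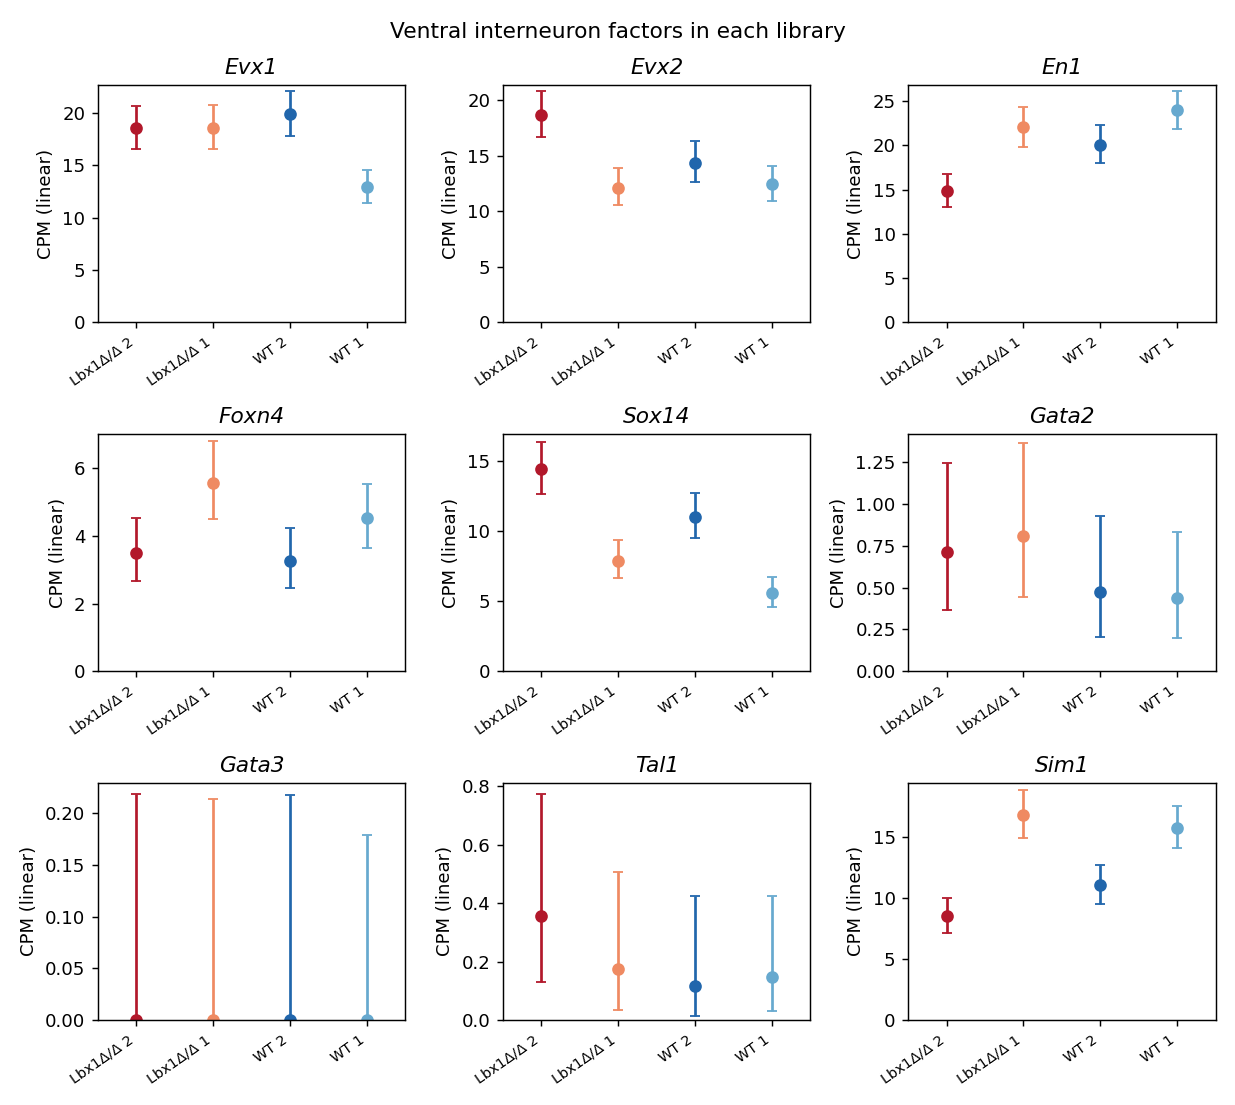
CPM of each gene in libraries 2 and 1 labelled Lbx1Δ/Δ (red and orange) and in WT libraries 2 and 1 (dark and light blue), with a linear axis from 0 that differs between panels. Bars are exact 95% Poisson intervals, which cover counting error only. For Gata3, at 0 counts, these two-sided bars reach 0.179 to 0.219 CPM, above the limit of 3 counts given in the text. Sox14 was higher, and Sim1 lower, in each library numbered 2 than in each library numbered 1, and Gata3 was at 0 throughout.

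Lbx1 had 6520 and 1946 counts in libraries 2 and 1 labelled Lbx1Δ/Δ, and 1379 and 819 in WT libraries 2 and 1, so the targeted gene was higher under the mutant label. It was counted as a single accession and the labels do not say which part was deleted. The labels could not be checked from its counts, and all directions below go by them.

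None of the ventral factors passed the test between the libraries labelled Lbx1Δ/Δ and WT. The fitted log2 differences of the 7 that could be tested lay between −0.27 for En1 and 0.73 for Gata2. For the 6 well-counted genes the libraries labelled Lbx1Δ/Δ overlapped those of WT in CPM. The test was edgeR's quasi-likelihood test on genotype with Benjamini-Hochberg adjustment over 10757 genes, in which 0% of genes were called (0 genes, with 55 at an unadjusted p below 0.05). Each genotype group held a library of each number, so this test counted the difference between numbers as spread. The 55 genes were fewer than the share of 0.05 that a test gives where nothing differs. The absence of calls therefore does not show equal levels. DESeq2 also called 0 genes, with 33 at an unadjusted p below 0.05.

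Evx1, a homeodomain factor needed for V0 identity, had 312 and 320 counts in libraries 2 and 1 labelled Lbx1Δ/Δ, and 337 and 265 in WT libraries 2 and 1. Its mean level was 18.5 ± 0.0273 CPM in the libraries labelled Lbx1Δ/Δ and 16.4 ± 4.95 CPM in WT (SD, n = 2 each). The libraries labelled Lbx1Δ/Δ were nearly equal, while WT held both the highest and the lowest value. The fitted log2 difference was 0.17 (SE 0.30, 95% interval −0.61 to 0.94, edgeR adjusted p = 0.9998). The ratio of libraries labelled Lbx1Δ/Δ to WT at the same number was 0.931 for number 2 (95% counting interval 0.796 to 1.09) and 1.44 for number 1 (1.22 to 1.70). Evx1os, a noncoding gene that overlaps Evx1 on the opposite strand in the RefSeq table of GRCm38, had 342 and 344 counts in libraries 2 and 1 labelled Lbx1Δ/Δ and 336 and 389 in WT libraries 2 and 1. The strand setting of the counting is not given, so reads from the overlap of Evx1 and Evx1os cannot be told apart.

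Evx2, the paralogue of Evx1 in V0 neurons, had 315 and 209 counts in libraries 2 and 1 labelled Lbx1Δ/Δ, and 244 and 256 in WT libraries 2 and 1. Library 2 labelled Lbx1Δ/Δ was highest and library 1 of that label lowest. Mean levels were 15.4 ± 4.65 CPM in the libraries labelled Lbx1Δ/Δ and 13.4 ± 1.38 CPM in WT (SD, n = 2 each), a fitted log2 difference of 0.18 (SE 0.31, 95% interval −0.62 to 0.99, edgeR adjusted p = 0.9998). The pair of paralogues did not follow each other across libraries, with a ratio of Evx1 to Evx2 counts of 0.990 and 1.53 in libraries 2 and 1 labelled Lbx1Δ/Δ and of 1.38 and 1.04 in WT libraries 2 and 1. Evx2 lies next to Hoxd13 and Evx1 next to Hoxa13 in the same RefSeq table. Hoxd13, a Hox gene of the posterior trunk and limb, had 25 and 97 counts in libraries 2 and 1 labelled Lbx1Δ/Δ and 66 and 8 in WT libraries 2 and 1. Evx2 thus stayed within 209 to 315 counts where its neighbour ranged from 8 to 97. Hoxa13 had 0 and 16 counts in libraries 2 and 1 labelled Lbx1Δ/Δ and 0 and 3 in WT libraries 2 and 1.

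En1, the homeodomain factor of V1 neurons, had 250 and 380 counts in libraries 2 and 1 labelled Lbx1Δ/Δ, and 340 and 493 in WT libraries 2 and 1. Within each number the library labelled Lbx1Δ/Δ was the lower, at a ratio of 0.739 for number 2 (95% counting interval 0.626 to 0.873) and 0.920 for number 1 (0.802 to 1.05). Mean levels were 18.4 ± 5.09 CPM in the libraries labelled Lbx1Δ/Δ and 22.0 ± 2.75 CPM in WT (SD, n = 2 each), and the fitted log2 difference was −0.27 (SE 0.30, 95% interval −1.05 to 0.51, edgeR adjusted p = 0.9998). En1 is also a gene of the midbrain-hindbrain boundary. En2, its paralogue there, had 2 and 2 counts in libraries 2 and 1 labelled Lbx1Δ/Δ and 8 and 31 in WT libraries 2 and 1. The boundary signal Fgf8, which is uncertain with 4 accessions, was at 0 counts in all 4 libraries. The summed level of the 6 genes listed for that region was 167.5 and 81.9 CPM in libraries 2 and 1 labelled Lbx1Δ/Δ and 156.6 and 77.1 CPM in WT libraries 2 and 1, most of it from Pax5 and Pax8, which the spinal cord also expresses. The part of boundary tissue in the En1 values was not tested.

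Foxn4, the forkhead factor of p2 progenitors, was the scarcest of the 6 well-counted genes, with 59 and 96 counts in libraries 2 and 1 labelled Lbx1Δ/Δ and 55 and 93 in WT libraries 2 and 1. The libraries sorted by number rather than by genotype. Mean levels were 4.53 ± 1.46 CPM in the libraries labelled Lbx1Δ/Δ and 3.88 ± 0.901 CPM in WT (SD, n = 2 each), with a fitted log2 difference of 0.21 (SE 0.42, 95% interval −0.89 to 1.31, edgeR adjusted p = 0.9998).

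Sox14, a SOX-family factor of V2a neurons, had 243 and 136 counts in libraries 2 and 1 labelled Lbx1Δ/Δ, and 187 and 115 in WT libraries 2 and 1. The library labelled Lbx1Δ/Δ was the higher within each number, at a ratio of 1.31 for number 2 (95% counting interval 1.08 to 1.59) and 1.41 for number 1 (1.09 to 1.82). Mean levels were 11.2 ± 4.62 CPM in the libraries labelled Lbx1Δ/Δ and 8.31 ± 3.85 CPM in WT (SD, n = 2 each). The fitted log2 difference of 0.41 (SE 0.49, 95% interval −0.86 to 1.68) was smaller than the spread between numbers, with an edgeR adjusted p of 0.9998. Without library 2 labelled Lbx1Δ/Δ it was −0.075, but that fit set 1 library numbered 1 against WT libraries of both numbers.

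Among the V2b factors, Gata2, a zinc-finger factor, was at 0.712 and 0.812 CPM in libraries 2 and 1 labelled Lbx1Δ/Δ and at 0.472 and 0.437 CPM in WT libraries 2 and 1. Of the 7 tested members it was the 1 whose groups did not overlap, against 20.6% of all tested genes. Its exact 95% counting intervals overlapped between all 4 libraries, however, running from 0.368 to 1.24 CPM in library 2 and from 0.444 to 1.36 CPM in library 1 labelled Lbx1Δ/Δ, and from 0.204 to 0.930 CPM in library 2 and from 0.200 to 0.830 CPM in library 1 of WT. It entered the test only because the libraries labelled Lbx1Δ/Δ were above the filter's level of 0.585 CPM, and its fitted log2 difference was 0.73 (SE 0.51, edgeR adjusted p = 0.9998). Tal1, a helix-loop-helix factor, and Gata3 did not pass the filter. Gata2 and Tal1 are also genes of blood and vessel cells. The 8 erythroid genes listed summed to 2565 and 5829 CPM in libraries 2 and 1 labelled Lbx1Δ/Δ and to 2761 and 8146 CPM in WT libraries 2 and 1, with Alas2 at 0 counts throughout. The 8 endothelial genes summed to 503.3 and 477.3 CPM in libraries 2 and 1 labelled Lbx1Δ/Δ and to 493 and 528.7 CPM in WT libraries 2 and 1, with Pecam1, Tek and Emcn at 0. Alas2, Pecam1, Tek and Emcn each had several accessions, so their values of 0 are uncertain. The part of blood and vessel cells in the few Gata2 and Tal1 counts was not tested.

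Sim1, a helix-loop-helix factor of V3 neurons, had 143 and 290 counts in libraries 2 and 1 labelled Lbx1Δ/Δ, and 187 and 324 in WT libraries 2 and 1. Mean levels were 12.6 ± 5.89 CPM in the libraries labelled Lbx1Δ/Δ and 13.4 ± 3.33 CPM in WT (SD, n = 2 each), a fitted log2 difference of −0.092 (SE 0.44, 95% interval −1.23 to 1.05, edgeR adjusted p = 0.9998). The ratio of libraries labelled Lbx1Δ/Δ to WT was 0.769 for number 2 (95% counting interval 0.614 to 0.961) and 1.07 for number 1 (0.908 to 1.25), so the direction differed between numbers, a difference that was not tested.

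**Figure D2:**
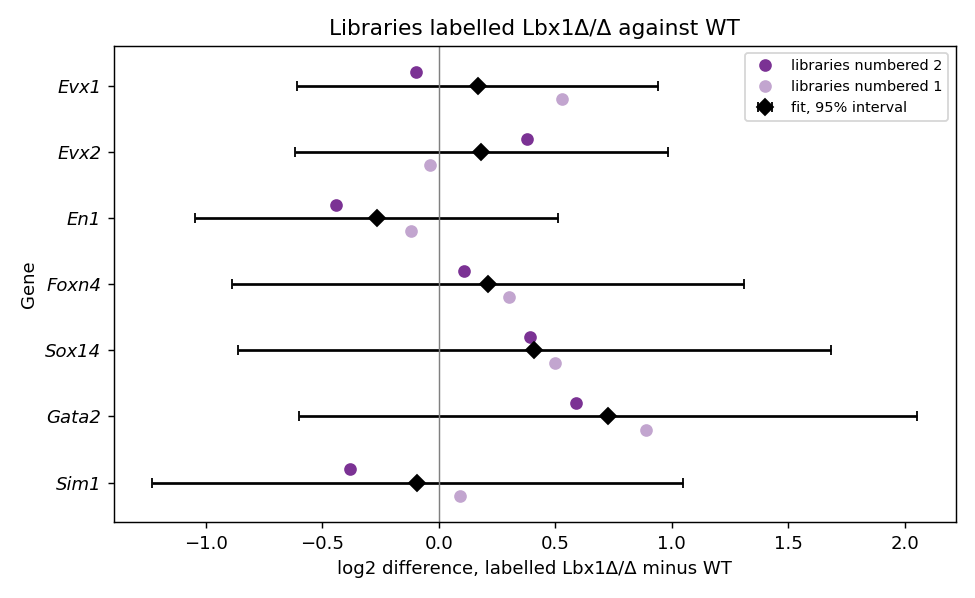
Log2 differences between libraries labelled Lbx1Δ/Δ and WT for the 7 tested genes, as fitted over 4 libraries (diamonds, bars are 95% intervals of the edgeR fit) and between the libraries numbered 2 (dark circles) and those numbered 1 (light circles). Every interval includes 0. The circles of Evx1, Evx2 and Sim1 lie on opposite sides of 0.

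The libraries differed more by replicate number than by genotype label, and the ventral factors went in both directions. Sox14 was higher and Sim1 lower in the libraries numbered 2 than in those numbered 1. Evx2 was also higher in both libraries numbered 2, and En1 and Foxn4 lower, without passing the test. Of the 7 tested members, 2 were called (28.6%) against 25.5% of all 10757 tested genes, so the share called was near that of all genes. By direction, 1 member was called higher, against 13.3% of all genes, and 1 lower, against 12.2%. The groups did not overlap for 5 of the 7, against 66% of all tested genes.

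Sox14 was at 14.4 and 11.0 CPM in libraries numbered 2 (labelled Lbx1Δ/Δ and WT), against 7.88 and 5.59 CPM in libraries numbered 1 (labelled Lbx1Δ/Δ and WT). The 2 libraries numbered 2 averaged 12.7 ± 2.39 CPM and the 2 numbered 1 averaged 6.74 ± 1.62 CPM (SD, n = 2 each). The fitted log2 difference of number 2 minus number 1 was 0.90 (SE 0.25, 95% interval 0.34 to 1.46, edgeR adjusted p = 0.0260, p over all tested genes), a 1.87-fold ratio. The ratio was 1.83 within the libraries labelled Lbx1Δ/Δ (95% counting interval 1.48 to 2.27) and 1.97 within WT (1.56 to 2.51).

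Sim1 was at 8.49 and 11.0 CPM in libraries numbered 2 (labelled Lbx1Δ/Δ and WT), against 16.8 and 15.7 CPM in libraries numbered 1. The averages were 9.76 ± 1.80 CPM for number 2 and 16.3 ± 0.755 CPM for number 1 (SD, n = 2 each), with a log2 difference of −0.75 (SE 0.21, 95% interval −1.22 to −0.29, edgeR adjusted p = 0.0252). The ratio was 0.505 within the libraries labelled Lbx1Δ/Δ (95% counting interval 0.410 to 0.619) and 0.701 within WT (0.582 to 0.842). The V2a and V3 markers thus went in opposite directions. The ratio of Sox14 to Sim1 counts was 1.7 and 1 in the libraries numbered 2 (labelled Lbx1Δ/Δ and WT) and 0.469 and 0.355 in those numbered 1. Both genes were also called with genotype as a covariate (edgeR adjusted p = 0.00239 for Sox14 and 0.00508 for Sim1). Without WT library 2 the log2 differences were larger in size, at 1.07 for Sox14 and −0.97 for Sim1. Both calls nevertheless rested on few libraries. The adjusted p of Sox14 was 0.0566 without library 2 labelled Lbx1Δ/Δ, 0.109 without library 1 of that label and 0.292 without WT library 1, and that of Sim1 was 0.0748, 0.203 and 0.194.

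En1 averaged 17.4 ± 3.70 CPM in libraries numbered 2 and 23.0 ± 1.36 CPM in libraries numbered 1 (SD, n = 2 each), a log2 difference of −0.42 (SE 0.19, edgeR adjusted p = 0.143). It passed the test without WT library 2 (log2 −0.67, adjusted p = 0.00725) and with genotype as a covariate (adjusted p = 0.0489), and was smaller without library 2 labelled Lbx1Δ/Δ (log2 −0.20, adjusted p = 0.553). Foxn4 averaged 3.37 ± 0.181 CPM in libraries numbered 2 and 5.04 ± 0.740 CPM in libraries numbered 1 (SD, n = 2 each), a log2 difference of −0.60 (SE 0.29, edgeR adjusted p = 0.170). Evx2 averaged 16.5 ± 3.04 CPM in libraries numbered 2 and 12.3 ± 0.229 CPM in libraries numbered 1 (SD, n = 2 each), a log2 difference of 0.41 (SE 0.20, edgeR adjusted p = 0.158). With library 2 labelled Lbx1Δ/Δ left out it was 0.23 (adjusted p = 0.548), and with WT library 2 left out 0.57 (adjusted p = 0.0331). Evx1 had a log2 difference of 0.27 (SE 0.21, edgeR adjusted p = 0.369), which was 0.019 without WT library 1 and 0.56 without library 1 labelled Lbx1Δ/Δ, with libraries numbered 2 and 1 at nearly the same level under the mutant label (18.5 and 18.6 CPM) and apart in WT (19.9 and 12.9 CPM). Gata2 had a log2 difference of −0.077 (SE 0.60, edgeR adjusted p = 0.946).

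**Figure D3:**
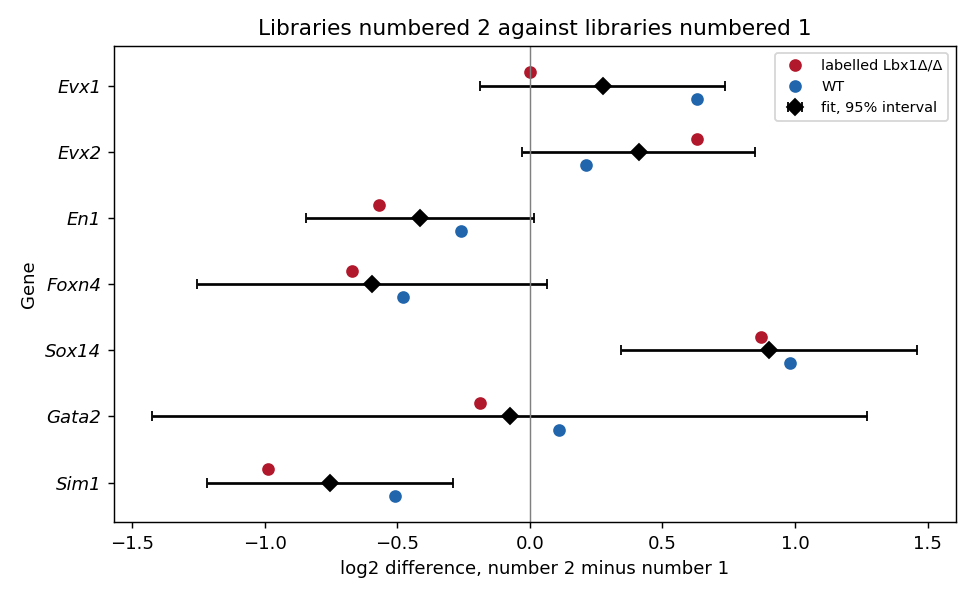
Log2 differences between libraries numbered 2 and numbered 1 for the 7 tested genes, as fitted over 4 libraries (diamonds, bars are 95% intervals of the edgeR fit), within the libraries labelled Lbx1Δ/Δ (red) and within WT (blue). The intervals of Sox14 and Sim1 lie on opposite sides of 0, and the circles of En1, Foxn4, Sox14, Sim1 and Evx2 lie on the same side in both genotypes.

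Markers of other tissues and states also differed by number. The 3 tested pan-neuronal genes of the 6 listed (Tubb3, Elavl3 and Stmn2) were all called higher in libraries numbered 2, and the list summed to 6473 and 5525 CPM in libraries numbered 2 (labelled Lbx1Δ/Δ and WT) and to 3482 and 3048 CPM in libraries numbered 1. All 4 genes of cycling cells (Mki67, Top2a, Ccnb1 and Cdk1) were called lower, with sums of 1318 and 1749 CPM in libraries numbered 2 and 2773 and 2635 CPM in libraries numbered 1. The erythroid list was called lower in 6 of 7 tested genes. Of all tested genes, 13.3% were called higher and 12.2% lower. The part of these differences in the Sox14 and Sim1 values was not tested. Sox14, a marker of postmitotic V2a neurons, was on the side of the neuronal genes, while Sim1 and En1, likewise markers of postmitotic neurons, had lower values in libraries numbered 2, as Foxn4, a progenitor factor, did.

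Other genes of the ventral classes, listed from textbook knowledge of the tissue, were mostly higher in the libraries numbered 2. Of all tested genes 13.3% were called higher. Of the 9 V1 genes, all tested, 6 were called higher and none lower, with a median log2 difference of 0.73 against 0.00 over all tested genes. Pax2, Lhx1 and Lhx5, which dorsal inhibitory neurons share, were among them, with log2 differences of 1.11, 0.88 and 0.73 (named after their values were seen). Prdm12, a factor of p1 progenitors that give rise to V1 neurons, had 0.94 and Foxd3, a forkhead factor of V1 neurons and neural crest, 0.59. Foxp2, a forkhead factor of V1 subsets, was the 1 listed V1 gene with a negative value (−1.0, adjusted p = 0.155) and, with 3 accessions and at most 40 counts a library, is uncertain. En1, at −0.42, thus had a value opposite in sign to 8 of the 9 other V1 genes. Of the 12 V2 genes, 10 were tested, all with positive values and 2 called, the SOX factor Sox21 and the Notch-modifying enzyme Mfng, with a median of 0.38, below the 0.90 of Sox14. Of the 5 V3 genes, 3 were tested. Nkx2-2, the factor of p3 progenitors that give rise to V3 neurons, had a log2 difference of −0.007 (SE 0.34) where Sim1 had −0.75, and Slc17a6, a vesicular glutamate transporter that most excitatory neurons share, was called higher (1.32). Nkx2-2, at 60 to 85 counts a library, and Slc17a6 had 2 accessions each and are uncertain. Of the 10 genes of ventral progenitors 8 were tested and 2 called higher, Prdm12 and Olig2, with a median of 0.21.

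Between genotypes none of these lists held a called gene, against the 0% of all tested genes. V1 genes had positive fitted values in 8 of 9 tested (median log2 difference 0.22), V2 genes in 10 of 10 (0.18), V3 genes in 3 of 3 (0.42) and ventral progenitor genes in 7 of 8 (0.27), while over all tested genes 5322 of 10757 were positive. Some lists of other cells also leaned, with positive values in 3 of 3 neuronal genes (median 0.24), 0 of 4 cycling genes (−0.11), 0 of 7 erythroid genes (−0.26) and 0 of 4 surface ectoderm genes (−0.62). Other lists were mixed, with positive values in 2 of 5 endothelial genes (−0.10) and 4 of 6 sympathetic genes (0.094). The midbrain-hindbrain list had 2 of 3 (0.27), and the tail bud and limb list 1 of 3 (−0.58). The part of these other cells in the ventral values was not tested. The smallest unadjusted p-values were those of Uncx, a homeobox gene of V3 and other interneurons (log2 0.76, SE 0.23), and Prdm8, a progenitor factor (log2 0.75, SE 0.26), both with an edgeR adjusted p of 0.9998. Ldb1, a cofactor of LIM proteins that is uncertain with 3 accessions, had a log2 difference of 0.58 (SE 0.26). Lhx4, a LIM factor of V2 neurons, had a log2 difference of 0.59 (SE 0.34), and Dbx2 of p0 and p1 progenitors 0.55 (SE 0.33). Dbx1, the p0 factor that precedes Evx1, had 444 and 491 counts in libraries 2 and 1 labelled Lbx1Δ/Δ and 439 and 432 in WT libraries 2 and 1.

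**Figure D4:**
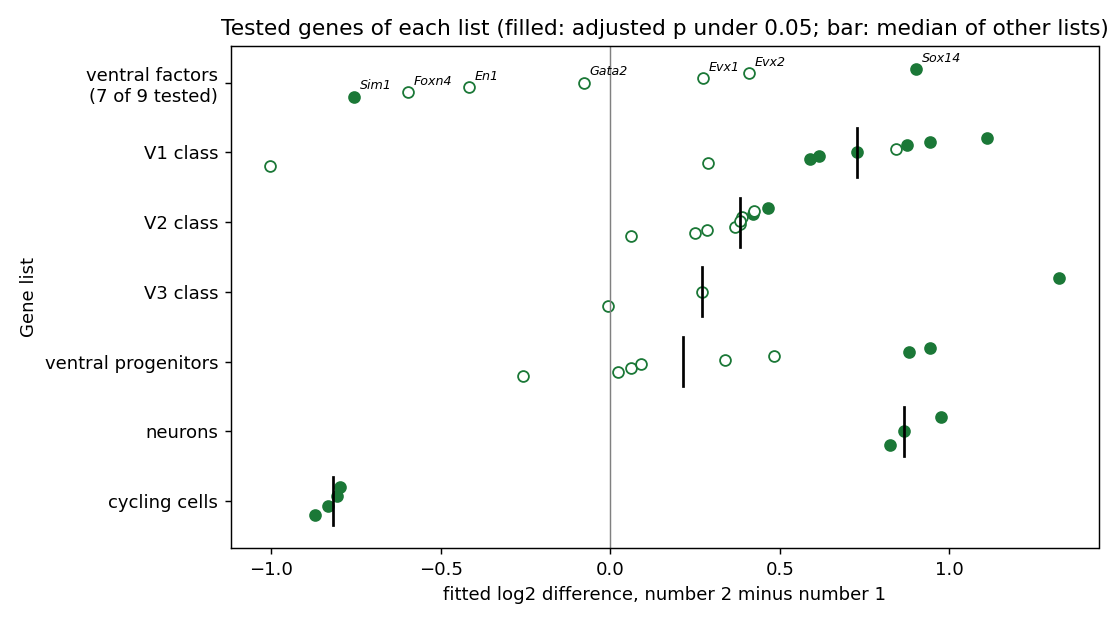
Fitted log2 differences between libraries numbered 2 and numbered 1 for each tested gene of the ventral factors and of 6 lists (filled circles have an adjusted p under 0.05, bars are list medians). The ventral factors spread from −0.75 for Sim1 to 0.90 for Sox14, while the V1 list had a median of 0.73, the neuronal genes 0.86 and the cycling genes −0.82.

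Per kilobase of transcript, using lengths of the GENCODE transcripts paired with each accession, the levels of the 6 well-counted genes fell into 2 ranges. Evx2 was at 8.48 to 13.1 CPM per kb over the 4 libraries, En1 at 5.65 to 9.13, Evx1 at 4.48 to 6.91 and Sox14 at 2.71 to 6.98, and each of these ranges overlapped the next. Sim1 at 1.15 to 2.29 CPM per kb and Foxn4 at 1.08 to 1.85 CPM per kb overlapped each other and lay below the other 4 in every library. The transcript lengths ran from 1428 bases for Evx2 to 7355 for Sim1, and the length counted by the authors may differ.

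Across the 4 libraries, the tested gene with the profile closest to each member was found by Euclidean distance in centred log2 CPM. It was Dlgap5 for Sim1 (distance 0.036), with 1199 and 2375 counts in libraries 2 and 1 labelled Lbx1Δ/Δ and 1532 and 2726 in WT libraries 2 and 1. It was Ndc1 for Foxn4 (0.032), Zgpat for Sox14 (0.050), E130308A19Rik for Evx1 (0.034), R3hcc1 for Evx2 (0.026), Fam110a for En1 (0.013) and Phyhipl for Gata2 (0.060). With 4 libraries and 10757 genes, such matches are a description of these profiles only.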

How the data were processed

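RNA of pooled neural tubes was sequenced in 4 libraries. The submitters' processing notes name TopHat2 2.1.1, featureCounts, edgeR and build mm9. The deposited values are raw counts per RefSeq accession. The 41411 accessions were named from RefSeq (GRCm38.p6) and GENCODE M21 tables, with 96 unnamed, and counts were summed per symbol. GRCm38 is another build than mm9 and served for names, neighbours, lengths and promoters. Genes were filtered with edgeR's filterByExpr by genotype (minimum count 10, total 15), which kept 10757 genes, and scaled by TMM. glmQLFTest (edgeR 4.0.16, R 4.3.3) tested genotype and, separately, replicate number, two-sided, adjusted over all tested genes at 0.05. SE is the log2 difference over the root of F. CPM use library totals. The test was tried on simulated counts, which held no difference between numbers when genotype was tested. That trial therefore does not show what size of genotype difference could be detected in these libraries. The members, gene lists and tests were chosen with earlier results of these data known. All members are named, with, for the gene lists, defining genes and up to 4 smallest genotype p-values, and 2 listed genes are not reported here. Alternatives were RLE, upper-quartile and total scaling, 2 filters, DESeq2 1.42.0, single-accession genes, covariates and leaving out each library. P-values measure the spread between pools, 2 a group. In the genotype fit that spread includes the difference between numbers, and in the number fit it includes any difference between genotypes.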

Additional observations from a re-analysis of the deposited data

How the results depend on the processing

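No member was called between genotypes under any alternative run. With the replicate number as a block (replicate block), 92 genes were called by genotype (29 higher and 63 lower in the libraries labelled Lbx1Δ/Δ), none of them a member, against 0 without the block. Under the block the log2 difference between genotypes was 0.42 for Sox14 (SE 0.20, edgeR adjusted p = 0.402). It was −0.29 for En1 (SE 0.16, edgeR adjusted p = 0.489), and the other tested members had larger adjusted p. Deviations of same-numbered libraries correlated at 0.62 across genes, but with 2 pairs and no label tying the numbers to litters the numbers were not taken to pair the libraries. Leaving out 1 library at a time, the log2 difference between genotypes ranged from −0.095 to 0.51 for Evx1, from −0.15 to 0.46 for Evx2, from −0.58 (without library 1 labelled Lbx1Δ/Δ) to −0.001 (without library 2 of that label) for En1, from −0.17 to 0.52 for Foxn4, from −0.075 to 0.97 for Sox14 and from −0.67 to 0.33 for Sim1. The signs turned without WT library 1 (Evx1 and Sim1), library 2 labelled Lbx1Δ/Δ (Evx2, Sox14 and Sim1), library 1 of that label or WT library 2 (Foxn4). Each of these fits set 1 library of one number against libraries of both numbers, so the difference between numbers entered the estimate. At the same number, the ratios of libraries labelled Lbx1Δ/Δ to WT were 1.31 and 1.41 for Sox14 and 1.08 and 1.23 for Foxn4 (numbers 2 and 1). Those of Evx1, Evx2 and Sim1 differed in direction between numbers. The sign of Gata2 by number also turned (−0.48 to 0.42). Calls by replicate number ranged from 1 to 3917 genes, and members called from 0 to 4, against 2739 and 2. The count was 6 without library 1 labelled Lbx1Δ/Δ and 1 without WT library 1. RLE, upper-quartile and total scaling, both filters, DESeq2 and single-accession genes kept Sox14 and Sim1 as the members called by number. Gata2, Tal1 and Gata3 had 0 to 14 counts a library, and the cause of these low counts was not tested.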
